A study of Mus musculus with 6 samples.

Results

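The genes described here encode the T cell receptor complex and its proximal signalling proteins. They were taken by symbol from a table of 31017 genes, and all 9 were present: the CD3 chains Cd3d, Cd3e, Cd3g and Cd247, the coreceptor Cd4, the kinases Lck and Zap70, and the adaptors Lat and Lcp2. All 9 passed the filter on low counts, among 14268 tested genes. RNA was sequenced from mouse Th17 cells, helper T cells that secrete interleukin 17, differentiated in culture. There were 3 control libraries (genotype WT) and 3 libraries labelled KO for RTF1, a nuclear protein that works with RNA polymerase II and promotes ubiquitination of histone H2B. The labels give no strain, age, Cre driver or culture time, and do not say whether replicates came from separate animals, so p-values measure only the spread between these libraries.

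As background, the clonal receptor chains of a T cell have almost no signalling tail of their own. They are assembled with the CD3 delta, epsilon and gamma chains and with the zeta chain encoded by Cd247, whose tyrosine motifs are phosphorylated by LCK, a kinase that travels with the CD4 coreceptor. ZAP70 then binds the phosphorylated motifs and phosphorylates the membrane adaptor LAT and the cytosolic adaptor SLP-76, the product of Lcp2, on which calcium, Ras and cytoskeletal branches are built. In helper T cells this cascade reads peptides presented on class II molecules.

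The genes of the CD3 delta, epsilon and gamma chains are neighbours on mouse chromosome 9. Cd3e and Cd3g were called higher in KO, while Cd3d had a negative log2 fold change that was not called. For that reason the sequences before the start sites of these neighbours are shown. Lcp2, the member with the lowest fold change, is shown with them. Each line gives the 250 bases before the start site in RefSeq (GRCm38.p6), read in the direction of transcription, with matches to AGGAAG on either strand in capitals, a short core bound by ETS factors.
Cd3g, chr9:44980432-44980681, minus strand: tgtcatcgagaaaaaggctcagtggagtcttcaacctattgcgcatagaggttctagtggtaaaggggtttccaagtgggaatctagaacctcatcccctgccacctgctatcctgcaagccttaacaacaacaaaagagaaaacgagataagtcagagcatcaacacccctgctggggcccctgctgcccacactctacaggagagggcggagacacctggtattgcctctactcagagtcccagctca
Cd3d, chr9:44981536-44981785, plus strand: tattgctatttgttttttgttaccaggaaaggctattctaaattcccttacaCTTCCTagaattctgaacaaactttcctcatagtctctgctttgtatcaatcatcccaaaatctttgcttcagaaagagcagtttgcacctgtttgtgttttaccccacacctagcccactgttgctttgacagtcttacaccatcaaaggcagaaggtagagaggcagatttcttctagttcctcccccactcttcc
Cd3e, chr9:45009612-45009861, minus strand: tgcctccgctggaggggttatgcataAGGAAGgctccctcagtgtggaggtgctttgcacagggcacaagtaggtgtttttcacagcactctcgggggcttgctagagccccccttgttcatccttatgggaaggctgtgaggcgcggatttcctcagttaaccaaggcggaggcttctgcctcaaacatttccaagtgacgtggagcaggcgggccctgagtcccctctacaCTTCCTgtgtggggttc
Lcp2, chr11:34046678-34046927, plus strand: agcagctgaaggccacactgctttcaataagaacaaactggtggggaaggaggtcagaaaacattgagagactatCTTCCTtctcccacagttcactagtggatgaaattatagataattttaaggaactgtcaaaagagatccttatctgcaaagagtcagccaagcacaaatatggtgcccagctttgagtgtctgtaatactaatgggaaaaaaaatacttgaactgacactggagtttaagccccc
By GENCODE's annotation Cd3g and Cd3d are transcribed away from each other, and their start sites lie 1355 bases apart. In the windows shown, AGGAAG matched 0 times for Cd3g, 1 time for Cd3d, 2 times for Cd3e and 1 time for Lcp2. RefSeq windows were matched for 8 of the 9 members, all but Cd4. The core was found in a window of 7 of these 8, and in 29.5% of all 32851 windows. Members are counted by gene and the percentages by window, and Lck has 2 windows and Zap70 has 3. The member counts and percentages, here and for the motifs that follow, are therefore not matched rates. CANNTG, the E-box, was found for 8 of 8 members (66.2% of all windows), and GATAAG for Cd3g and Lcp2 (6.55%). TGTGGT, a core bound by RUNX factors, was found for Lck and Zap70 (14% of all windows), and TATAAA for 0 of 8 (12.4%). Motifs were searched on both strands and chosen after the sequences were seen. A match describes letters in the window and not binding.

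Total counts ranged from 16489813 to 51271226 in control and from 19304121 to 35907999 in KO. The labels do not say which part of Rtf1 was deleted. For Rtf1, control libraries held 88.3 to 94.0 CPM and KO libraries 26.2 to 45.3 CPM, so 37.2% of the control level remained (CPM are counts scaled to library size with TMM factors). Replicate 3 of each group carried Y-linked counts, 11376 and 5147 over 4 genes, against 1 to 3 in the other libraries, so the fit was also run on replicates 1 and 2 alone. There the calls of the 9 members were the same except for Cd3d. Among the other genes named below, Trbc1, Ptpn11, Jaml and Pou2f1 lost their calls. The antisense genes and the markers Cd68, Csf1r and Eomes were not followed in that fit. Of the 6 Th17 markers, 4 were called lower in KO and 0 higher, and all stayed detected, with summed levels of 1603 to 2135 CPM in control and 594 to 1253 CPM in KO. The 2 markers of CD8 T cells summed to 6.87 to 10.5 CPM in control and 5.39 to 9.61 CPM in KO. The 4 gamma-delta T cell markers summed to 2.31 to 4.21 and 4.27 to 5.62 CPM, the 5 B cell markers to 1.24 to 3.09 and 1.74 to 2.62 CPM, and the 4 erythroid markers to 1.18 to 2.92 and 0.935 to 2.03 CPM. The 6 myeloid markers summed to 2.58 to 5.20 CPM in control and 16.9 to 28.5 CPM in KO. Cd68 and Csf1r were called higher, and most of the myeloid sum was Cd68, at 3.19 and 20.0 CPM, while Itgam stayed at or below 0.0713 CPM in each library. Among the 4 natural killer cell markers, Ncr1 and Klrb1c were at 0 in all libraries and Eomes was called higher, at 0.0991 and 1.55 CPM. The part of the myeloid and natural killer cell markers in the results below was not tested.

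The receptor complex did not move as a unit. Of the 9 members, 2 were called higher in KO (Cd3e and Cd3g), 4 lower (Cd247, Cd4, Lck and Lcp2), and 3 were not called (Cd3d, Zap70 and Lat), at an adjusted p under 0.05 in edgeR's quasi-likelihood test. Over all tested genes the same test called 46.1%, with 23.2% higher and 22.9% lower (3269 genes lower, and 2170 without KO replicate 2), so changes in either direction were common in these cells. The median log2 fold change was −0.41 over the members and 0.01 over all tested genes. In 6 members every KO library lay on 1 side of every control library, as in 57.9% of all tested genes. Each member held at least 1951 counts in each library, a counting error of at most 2.26%, so the spread between libraries set the precision. In bulk RNA, fewer cells of a type and less RNA per cell cannot be told apart.

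**Figure D1:**
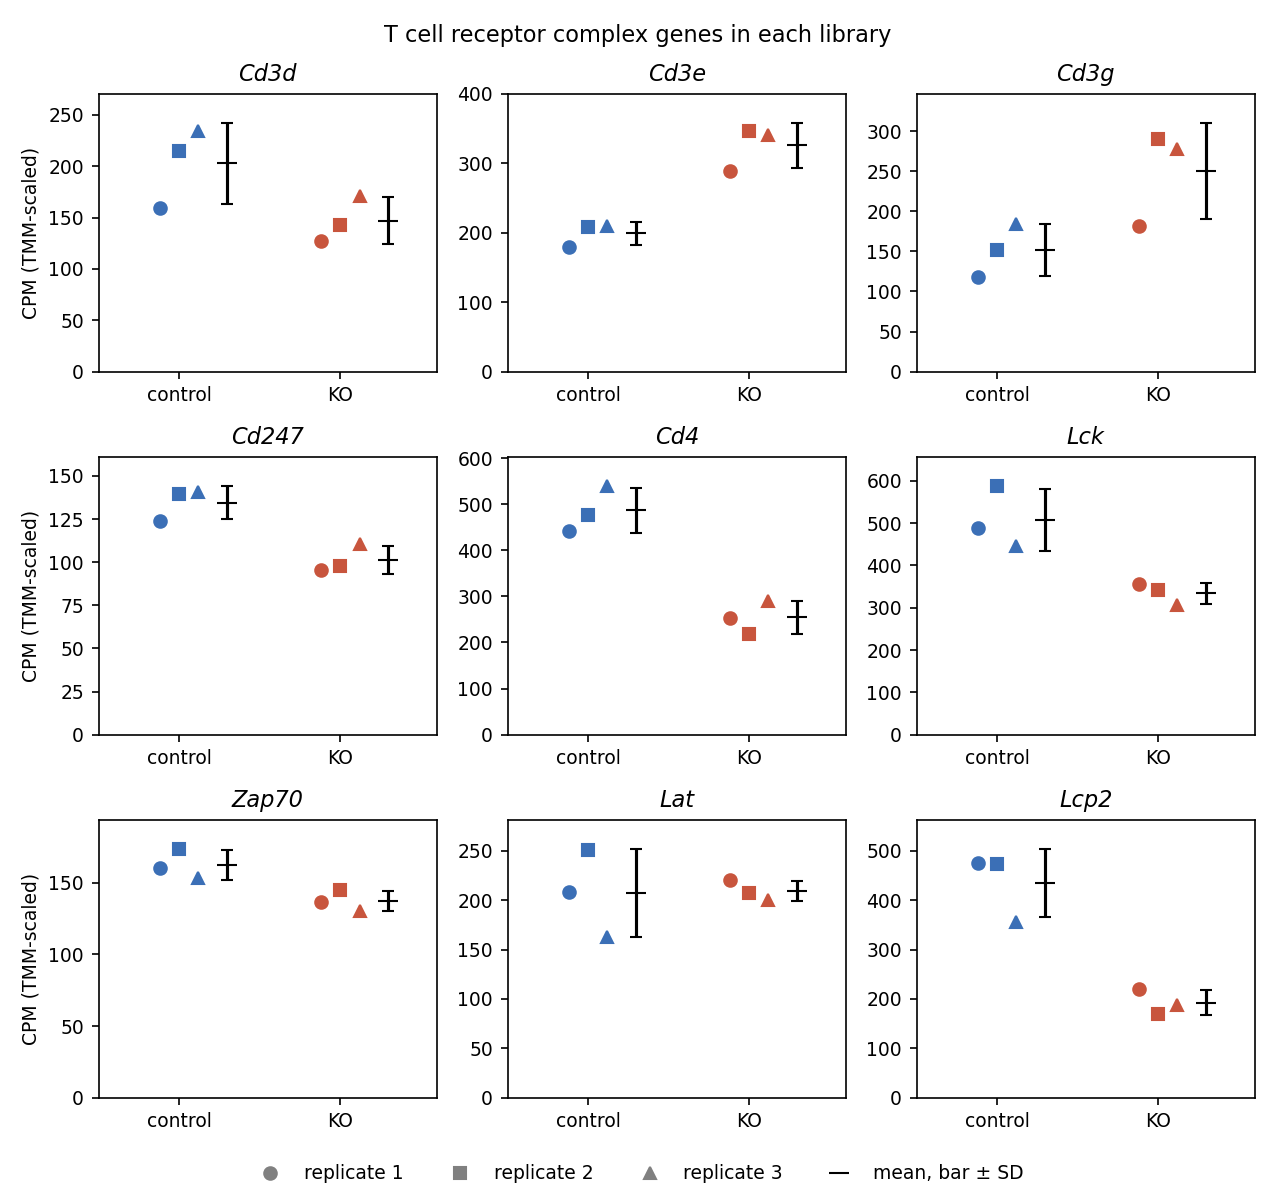
TMM-scaled CPM of the 9 members on the y axis in each of the 3 control and 3 KO libraries, with the symbol giving the replicate number and the bar the mean ± SD. Cd3e rose from 199 to 326 CPM, while Cd4 fell from 486 to 254 CPM and Lcp2 from 435 to 193 CPM.

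Among the CD3 chains, Cd3e encodes epsilon, the chain shared by both CD3 heterodimers. Control replicates 1, 2 and 3 held 179.6, 208 and 209 CPM of Cd3e, and KO replicates held 289, 347 and 341 CPM. Every KO library lay above every control library. The mean rose from 199 ± 16.7 to 326 ± 31.9 CPM (SD, n = 3), a log2 change of 0.71 with an adjusted p of 0.00242 by edgeR (SE 0.126). The call held in each of 14 alternatives (0.57 to 0.80). Antisense Gm48719 overlaps 3.31% of the exonic bases of Cd3e and reached no more than 2.51 CPM.

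Cd3g encodes gamma, which pairs with epsilon. Control replicates held 119, 152 and 184 CPM and KO replicates 181, 291 and 278 CPM. KO replicate 1 lay just below control replicate 3, so the groups overlapped by that pair, and the other KO libraries lay above all controls. The mean rose from 151 ± 32.6 to 249.9 ± 59.7 CPM (SD, n = 3), a log2 change of 0.72 with an adjusted p of 0.0221 by edgeR (SE 0.213). The call was lost without control replicate 1 (0.51, adjusted p = 0.103), control replicate 2 (0.71, adjusted p = 0.0636), KO replicate 2 (0.60, adjusted p = 0.0863) or KO replicate 3 (0.64, adjusted p = 0.0695). It held with replicates 1 and 2 alone (0.80, adjusted p = 0.0105).

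Cd3d encodes delta, the partner of epsilon in the other heterodimer. Control replicates held 159, 215 and 234 CPM and KO replicates 127, 143 and 171 CPM. KO replicates 1 and 2 lay below every control, and KO replicate 3 lay between control replicates 1 and 2. The means were 203 ± 39.1 and 147 ± 22.5 CPM (SD, n = 3), a log2 change of −0.46 that was not called by edgeR (adjusted p = 0.0526, SE 0.171). With the replicate number as a block it was called lower (−0.45, adjusted p = 0.00566), as in 5 other alternatives. Among these were DESeq2 (−0.49, adjusted p = 0.0415), replicates 1 and 2 alone (−0.47, adjusted p = 0.0366), and the fits without control replicate 1 (−0.68, adjusted p = 0.0166) or KO replicate 3 (−0.59, adjusted p = 0.0413).

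Cd247, on chromosome 1 from 165788681 to 165877277 (plus strand; all positions in GRCm38), encodes zeta, the chain with the most tyrosine motifs in the complex. Control replicates held 124, 139.6 and 140.4 CPM and KO replicates 95.6, 98.0 and 111 CPM, with no overlap. The mean fell from 135 ± 9.44 to 101 ± 8.17 CPM (SD, n = 3), a log2 change of −0.41 with an adjusted p of 0.0167 by edgeR (SE 0.112). The call was lost without KO replicate 1 (−0.37, adjusted p = 0.0509) or KO replicate 2 (−0.38, adjusted p = 0.0730). The value is uncertain for another reason: 60.3% of the exonic bases of Cd247 in GENCODE release 21 for mouse overlap other genes, mainly Pou2f1 on the opposite strand, and the strand setting of the counting is not given in the sources used here. Pou2f1 itself fell from 58.3 ± 10.1 to 41.5 ± 4.02 CPM (SD, n = 3), a log2 change of −0.49 with an adjusted p of 0.0286 by edgeR, a call lost without control replicate 1, KO replicate 2 or KO replicate 3 (adjusted p = 0.0641, 0.111 and 0.0830). It was also lost with scaling by library size only (−0.41, adjusted p = 0.0671) and with replicates 1 and 2 alone (−0.38, adjusted p = 0.0964).

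The difference between the CD3 genes can be read without any scaling, from the ratio of counts of 2 genes in the same library. Control replicates held 1.13, 0.968 and 0.893 Cd3e counts per Cd3d count, and KO replicates 2.27, 2.42 and 1.99. The ratio was 2.24-fold higher in KO. Per Cd3d count, control replicates held 0.746, 0.706 and 0.784 Cd3g counts and KO replicates 1.43, 2.03 and 1.62, which was 2.25-fold higher. Neither set of ratios overlapped between the groups. In contrast, the ratio of Cd3g to Cd3e averaged 0.756 ± 0.112 over control libraries and 0.760 ± 0.115 over KO libraries (SD, n = 3), so the ratio of these 2 genes overlapped between the groups. For each of the first 2 ratios the exact permutation test, two-sided, gave p = 0.1, the smallest that 3 against 3 allows, and 0.15 after Benjamini-Hochberg adjustment over 6 ratios. For Cd3g to Cd3e the exact permutation p was 1. All 6 ratios were chosen after the values were seen. Taken within equal replicate numbers, which was added after seeing the data, Cd3e to Cd3d was 2.01-fold to 2.51-fold higher in KO and Cd3g to Cd3d 1.91-fold to 2.88-fold, in 3 of 3 pairs each, while Cd3g to Cd3e was higher in 1 of 3. With 3 pairs the exact paired permutation test cannot go below p = 0.25.

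**Figure D2:**
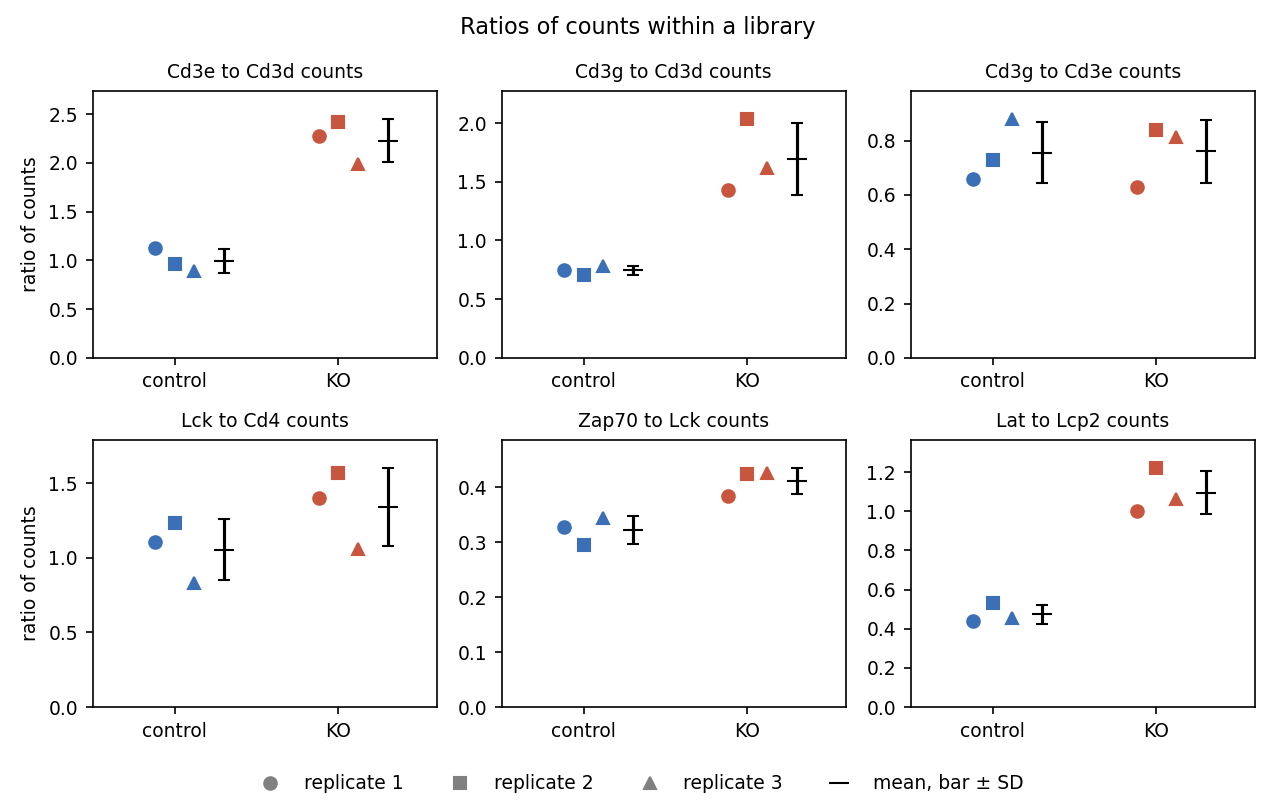
Ratio of the counts of 2 members within each library (y axis, no unit) in 3 control and 3 KO libraries, with symbols for replicate numbers and bars for the mean ± SD. Cd3e to Cd3d, Cd3g to Cd3d and Lat to Lcp2 did not overlap between the groups, whose means differed by 2.24-fold to 2.31-fold. Zap70 to Lck did not overlap either, at a smaller difference of 1.28-fold. Cd3g to Cd3e and Lck to Cd4 overlapped.

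Per length, Cd3d had the largest share of the summed level of Cd3d, Cd3e and Cd3g in control cells, with either choice of gene length. Its share of that sum of CPM per kb of exon averaged 53.9% ± 1.49 over control libraries and 34.3% ± 2.67 over KO libraries (SD, n = 3). Cd3e went from 23.8% ± 2.29 to 33.8% ± 2.15 and Cd3g from 22.3% ± 1.28 to 31.9% ± 3.48. The 3 chains were at more equal levels in KO than in control on this scale, which rests on exon lengths of 1815, 4080 and 3269 bases. With the longest transcript as the length instead, Cd3e led in KO at 128 ± 12.5 CPM per kb, before Cd3g at 98.4 ± 23.5 and Cd3d at 91.0 ± 13.9 (SD, n = 3), and the share of Cd3d was 47.5% ± 1.63 over control libraries and 28.8% ± 2.33 over KO libraries (SD, n = 3).

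The 3 genes span 40.1 kb of chromosome 9 in GENCODE's GRCm38 annotation, with Cd3g at 44969572 to 44980431, Cd3d at 44981786 to 44987339 and Cd3e at 44998740 to 45009627. Cd3d lies between the other two, on the opposite strand. Of 9 other tested genes within 100 kb of the cluster, 6 were called higher in KO and 0 lower, beside 23.2% and 22.9% of all tested genes. Among the 6 were low-level antisense genes, AC061963.1 (means of 2.06 CPM in control and 5.89 CPM in KO) and Gm30934 (0.870 and 1.84 CPM). The alternatives were not followed for these antisense genes. Their annotated extents overlap those of Kmt2a and Atp5l, and that of antisense Gm48719, not called, overlaps Cd3e. Because the strand setting is not given, overlapping genes may share reads, so the 9 genes are not all separate. Ube4a, a ubiquitin ligase gene on the strand of Cd3g with its start site 3972 bases beyond the end of Cd3g, rose from 82.1 ± 9.53 to 226 ± 24.2 CPM (SD, n = 3), a log2 change of 1.46 with an adjusted p of 0.00018 by edgeR (SE 0.135). Mpzl3 (0.69, adjusted p = 0.00504), Jaml (0.89, adjusted p = 0.0214) and Atp5l (0.42, adjusted p = 0.0171) were also higher, and Kmt2a (0.37, adjusted p = 0.0706) was not called. Kmt2a was called higher with the replicate number as a block (0.37, adjusted p = 0.0152) and with scaling by library size only (0.45, adjusted p = 0.0369). The call of Jaml was lost without control replicate 1, control replicate 3, KO replicate 1 or KO replicate 3 (adjusted p = 0.0552, 0.0538, 0.0786 and 0.0580), and with replicates 1 and 2 alone (0.77, adjusted p = 0.0693). That of Atp5l was lost without control replicate 1, control replicate 3 or KO replicate 2 (adjusted p = 0.138, 0.0718 and 0.0800). These neighbours were named after their values were seen.

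**Figure D3:**
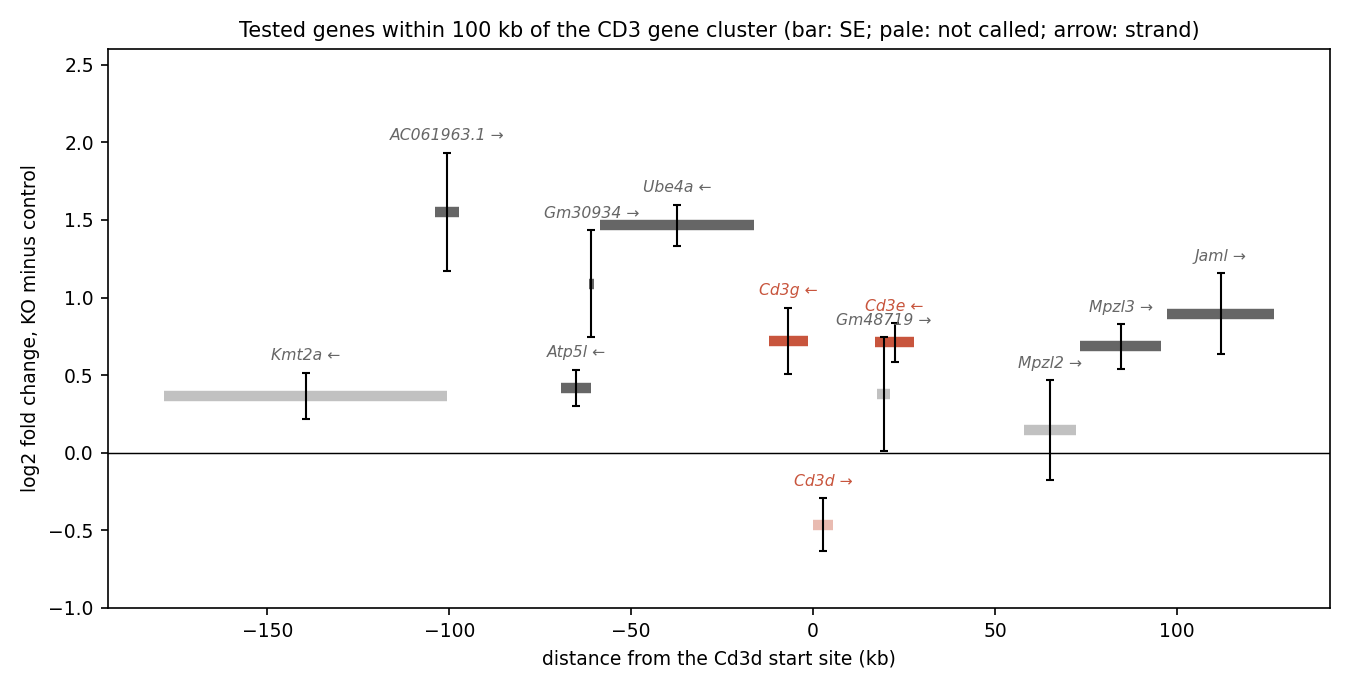
Log2 fold change (y axis, KO minus control, bars show SE) of the tested genes within 100 kb of the CD3 cluster, drawn over their annotated extent by distance from the Cd3d start site in kb (x axis), with arrows for the strand and pale bars for genes not called. Cd3d, at −0.46, lies below 0 between Cd3g at 0.72 and Cd3e at 0.71.

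Cd4, whose product binds class II molecules and brings LCK to the receptor, lies on chromosome 6 from 124864692 to 124888221 (minus strand) and fell in KO. Control replicates held 443, 477 and 539 CPM and KO replicates 254, 218 and 290.3 CPM. The lowest control library stood well above the highest KO library. The mean fell from 486 ± 48.6 to 254 ± 36.0 CPM (SD, n = 3), to 52.3% of control (log2 change −0.94, adjusted p = 0.00132 by edgeR, SE 0.144). The call held in each of 14 alternatives, between −1.06 and −0.83.

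Lck, the Src-family kinase that starts the cascade, lies on chromosome 4 from 129548344 to 129573641 (minus strand) and also fell. Control replicates held 489, 587 and 446 CPM and KO replicates 355, 341 and 307 CPM, with no overlap. The mean fell from 507 ± 72.2 to 334 ± 25.0 CPM (SD, n = 3), a log2 change of −0.60 with an adjusted p of 0.00785 by edgeR (SE 0.139), and the call held in each of 14 alternatives (−0.75 to −0.50). Control libraries held 1.05 ± 0.206 Lck counts per Cd4 count and KO libraries 1.34 ± 0.259 (SD, n = 3), and the groups overlapped (exact permutation test, two-sided, p = 0.3, 0.36 adjusted over the 6 ratios). Within equal replicate numbers the ratio was higher in KO in 3 of 3 pairs, by 1.27-fold, 1.27-fold and 1.28-fold (exact paired permutation test, two-sided, p = 0.25, the smallest that 3 pairs allow).

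Zap70, the kinase that docks on phosphorylated CD3 and zeta, lies on chromosome 1 from 36761798 to 36782818 (plus strand) and was not called. Control replicates held 160, 173 and 153 CPM and KO replicates 137, 145 and 131 CPM. Each KO library was lower than each control library, by a small margin. The means were 162 ± 10.2 and 137 ± 7.03 CPM (SD, n = 3), a log2 change of −0.24 with an adjusted p of 0.0912 by edgeR (SE 0.106). Of 14 alternatives, the fit without control replicate 3 alone called it (−0.34, adjusted p = 0.0476). Relative to Lck in the same library, Zap70 was at 0.328, 0.295 and 0.344 in control replicates and 0.385, 0.424 and 0.426 in KO replicates, which did not overlap (exact permutation test, two-sided, p = 0.1, 0.15 adjusted).

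Of the 2 adaptors that ZAP70 phosphorylates, Lcp2 fell and Lat was not called. Lcp2, on chromosome 11 from 34046920 to 34092295 (plus strand), held 475.1, 473 and 356 CPM in control replicates and 219.8, 169.9 and 188 CPM in KO replicates. Control replicate 3 was the lowest control and still exceeded each KO library. The mean fell from 435 ± 68.1 to 193 ± 25.2 CPM (SD, n = 3), to 44.3% of control (log2 change −1.18, adjusted p = 0.000743 by edgeR, SE 0.157). The call held in each of 14 alternatives, between −1.36 and −1.09. An antisense gene, 4930469K13Rik, overlaps 6.32% of the exonic bases of Lcp2 and stayed at or below 3.71 CPM.

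Lat, on chromosome 7 from 126363824 to 126369570 (minus strand), held 208, 251 and 162 CPM in control replicates and 221, 207 and 200.3 CPM in KO replicates. All KO libraries lay inside the control range. The means were 207 ± 44.4 and 209 ± 10.3 CPM (SD, n = 3), a log2 change of 0.01 with an adjusted p of 0.947 by edgeR (SE 0.160), and the sign flipped in 6 of 14 alternatives, within −0.20 to 0.16. Lat counts per Lcp2 count were 0.439, 0.530 and 0.455 in control replicates and 1.004, 1.22 and 1.06 in KO replicates, 2.31-fold higher in KO with no overlap (exact permutation test, two-sided, p = 0.1, 0.15 adjusted).

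**Figure D4:**
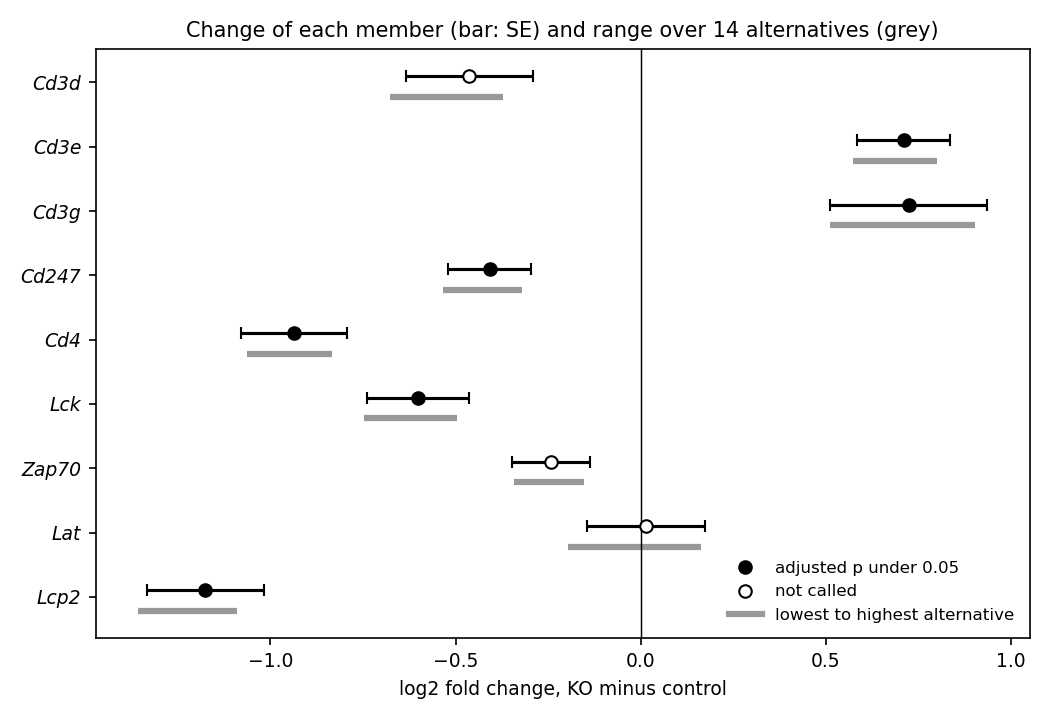
Log2 fold change (x axis, KO minus control) of each member with its SE, filled where the adjusted p was under 0.05, over a grey bar from the lowest to the highest of 14 alternatives. Lcp2 (−1.18) and Cd4 (−0.94) lie farthest to the left, Cd3e (0.71) and Cd3g (0.72) to the right, and the grey bar of Lat crosses 0.

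Compared per length, Lck had the highest level of the 9 in both groups. It stood at 173 ± 24.7 CPM per kb of exon in control and 114 ± 8.54 in KO (SD, n = 3). Cd247 had the lowest, 25.2 ± 1.77 and 19.0 ± 1.53. The place of Cd247 is uncertain, because 60.3% of its exonic bases overlap other genes and the strand setting is not given. With the longest transcript as the length, Cd3g and Cd247 overlapped between control libraries. In control the order after Lck was Cd4 (121 ± 12.1), Cd3d (112 ± 21.6), Lcp2 (97.5 ± 15.3), Lat (74.9 ± 16.0), Zap70 (54.3 ± 3.40), Cd3e (48.8 ± 4.09) and Cd3g (46.3 ± 9.97). Neighbours in this order overlapped between libraries except Lck with Cd4, Lat with Zap70, and Cd3g with Cd247. In KO the order after Lck was Cd3d (81.1 ± 12.4), Cd3e (79.8 ± 7.81), Cd3g (76.5 ± 18.3), Lat (75.7 ± 3.74), Cd4 (63.0 ± 8.94), Zap70 (45.9 ± 2.35) and Lcp2 (43.2 ± 5.66). Here Cd3d, Cd3e, Cd3g and Lat overlapped from neighbour to neighbour, as did Zap70 and Lcp2. Cd4 moved from place 2 to place 6 and Lcp2 from place 4 to place 8, with either choice of gene length.

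By the naming rule, the gene whose profile over the 6 libraries was most like that of each member was sought among 9485 other genes, by root-mean-square distance of log2 CPM centred on each gene's mean. Cd3e was closest to Eapp (distance 0.019), Lat to Snrpc (0.026), Lck to Gemin2 (0.027) and Zap70 to Polr2m (0.028). Cd247 was closest to Pcbp4 (0.038), Cd4 to Zfp414 (0.062), Cd3d to Sil1 (0.065), Lcp2 to Trim37 (0.074) and Cd3g to Kctd2 (0.076). Likeness over 6 libraries in 2 groups is a description only.

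The wider pathway was taken from 6 lists holding 74 genes, of which 73 were tested. Of these, 9 were called higher and 27 lower in KO, 12.3% and 37.0%, beside 23.2% and 22.9% of all tested genes. The median log2 fold change was −0.07 over the lists and 0.01 over all tested genes. Without control replicate 1, 5 were called higher.

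Of the 4 tested constant-region genes of the receptor's own chains, 1 was called lower and 0 higher (median −0.23). Trbc1, a constant region of the beta chain, fell from 171 ± 15.7 to 137 ± 8.68 CPM (SD, n = 3), a log2 change of −0.33 with an adjusted p of 0.0442 by edgeR (SE 0.115), a call lost without any 1 library other than control replicate 3 (adjusted p = 0.0523 without control replicate 1, 0.0878 without control replicate 2, and 0.126, 0.0832 and 0.109 without KO replicates 1, 2 and 3). It was lost in 10 of 14 alternatives in all, the others being DESeq2's size factors in edgeR, library size only, no filter on low counts, DESeq2, and replicates 1 and 2 alone (adjusted p = 0.0536, 0.112, 0.0640, 0.0752 and 0.0622). Trbc2 (−0.26, adjusted p = 0.155) and Trac (−0.20, adjusted p = 0.274) were not called. Trdc, of the delta chain of another T cell type, stood at 1.57 and 2.57 CPM (0.69, adjusted p = 0.0836). Trbc1 and Trbc2 are near-identical copies, so the division of reads between them is uncertain.

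Among 8 other proximal kinases, 1 rose and 2 fell (median 0.05). Txk, a Tec-family kinase, rose from 9.80 ± 1.65 to 38.4 ± 5.29 CPM (SD, n = 3), a log2 change of 1.96 with an adjusted p of 0.000143 by edgeR (SE 0.173). Map4k1, a kinase that restrains signalling through SLP-76, fell from 74.7 ± 8.76 to 41.8 ± 4.24 CPM (−0.84, adjusted p = 0.00154). Fyn, the other Src-family kinase of T cells, stood at 92.9 and 95.5 CPM (0.04, adjusted p = 0.803).

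Of 19 partners of LAT and SLP-76, 2 rose, 5 fell and 12 were not called (median 0.04). Themis, a T cell adaptor that binds GRB2, fell from 455 ± 195 to 72.2 ± 16.1 CPM (SD, n = 3), a log2 change of −2.66 with an adjusted p of 0.000369 by edgeR (SE 0.297). Control replicate 3 held 680.2 CPM of Themis against 337 and 347 in the other controls, and without it the change was −2.30. Fyb and Skap1 encode a pair of adaptors that links SLP-76 to integrin activation, and both fell, Fyb from 117 ± 44.5 to 49.1 ± 4.03 CPM (−1.25, adjusted p = 0.00307; −0.95 without control replicate 3) and Skap1 from 83.9 ± 12.2 to 42.8 ± 3.33 CPM (−0.97, adjusted p = 0.000867). Sh3bp2, an adaptor, rose from 12.97 ± 0.999 to 24.6 ± 3.28 CPM (0.92, adjusted p = 0.00195). Vav1, an exchange factor recruited to SLP-76, rose from 168 ± 14.9 to 229 ± 3.62 CPM (0.45, adjusted p = 0.0107), a call lost without control replicate 1 (adjusted p = 0.105) or control replicate 3 (adjusted p = 0.0629).

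Of 11 tested membrane adaptors and surface modulators, 2 rose and 6 fell (median −0.41). Cd2, an adhesion receptor, fell from 392 ± 54.6 to 245 ± 14.4 CPM (SD, n = 3), a log2 change of −0.68 with an adjusted p of 0.00401 by edgeR. Cd5, which dampens receptor signalling, fell from 503 ± 62.9 to 331 ± 39.6 CPM (−0.60, adjusted p = 0.00896), and Sit1, a membrane adaptor, from 11.4 ± 2.41 to 6.02 ± 0.178 CPM (−0.93, adjusted p = 0.00717). Spn, encoding the sialomucin CD43, rose from 290.3 ± 40.4 to 434 ± 12.1 CPM (0.58, adjusted p = 0.00722). The call of Cd5 was lost without KO replicate 2 (adjusted p = 0.0519) and that of Spn without control replicate 1 (adjusted p = 0.0665).

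Of 16 phosphatases, ubiquitin ligases and inhibitory adaptors, 2 rose and 7 fell (median −0.44). Sla, an adaptor that promotes turnover of the receptor's zeta chain, fell from 180.2 ± 31.6 to 49.1 ± 15.7 CPM (SD, n = 3), a log2 change of −1.88 with an adjusted p of 0.000481 by edgeR (SE 0.225). Ubash3a, a suppressor of receptor signalling, fell from 40.8 ± 3.62 to 17.4 ± 6.64 CPM (−1.23, adjusted p = 0.00438), and Ptpn2, a phosphatase, from 133 ± 11.8 to 70.4 ± 4.14 CPM (−0.92, adjusted p = 0.000528). Ptprj, a receptor-type phosphatase, rose from 126 ± 10.5 to 201 ± 24.4 CPM (0.67, adjusted p = 0.00325). Ptpn11, a cytosolic phosphatase, rose from 121 ± 12.98 to 158 ± 2.22 CPM (0.39, adjusted p = 0.0222), a call lost without any 1 library other than control replicate 2 (adjusted p = 0.0823 and 0.112 without control replicates 1 and 3, and 0.0571, 0.0692 and 0.0577 without KO replicates 1, 2 and 3). It was also lost under DESeq2 (adjusted p = 0.0528) and with replicates 1 and 2 alone (adjusted p = 0.0718).

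Downstream, 2 of 15 genes of the calcium, diacylglycerol and other downstream branches rose and 6 fell (median −0.004). Malt1, a paracaspase, fell from 839 ± 100.1 to 538 ± 15.6 CPM (SD, n = 3), a log2 change of −0.64 with an adjusted p of 0.00418 by edgeR. Prkcq, a diacylglycerol-responsive kinase, fell from 122 ± 16.2 to 80.6 ± 3.98 CPM (−0.60, adjusted p = 0.00481), and Itpr1, a calcium release channel, from 117 ± 24.1 to 74.9 ± 12.99 CPM (−0.64, adjusted p = 0.0187). Orai1, the pore of the store-operated calcium channel, rose from 36.6 ± 4.58 to 63.1 ± 15.0 CPM (0.79, adjusted p = 0.00797). Rasgrp1, a Ras exchange factor driven by diacylglycerol, rose from 85.1 ± 19.9 to 144 ± 33.0 CPM (0.76, adjusted p = 0.0160). The call of Rasgrp1 was lost without control replicate 1, control replicate 2, KO replicate 2 or KO replicate 3 (adjusted p = 0.0700, 0.0632, 0.0519 and 0.0571), and that of Itpr1 without KO replicate 2 (adjusted p = 0.0797).

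**Figure D5:**
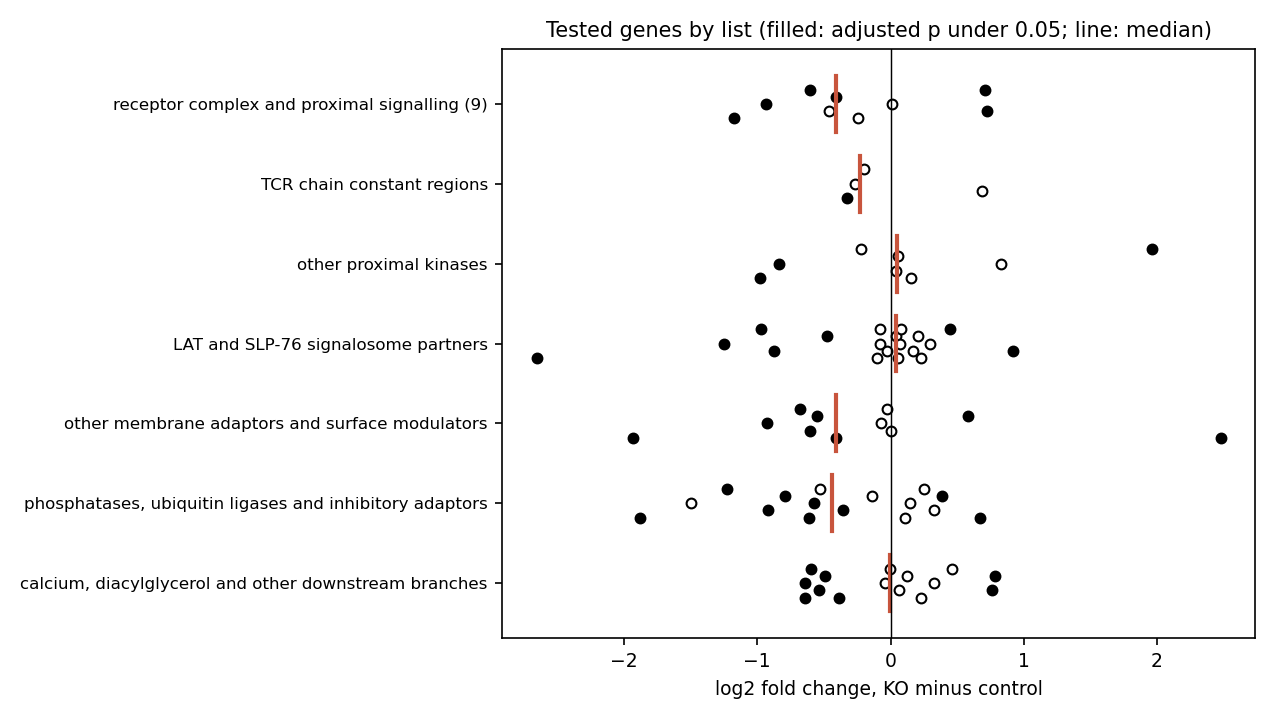
Log2 fold change (x axis, KO minus control) of each tested gene of the receptor complex and of 6 pathway lists (rows), filled where the adjusted p was under 0.05, with the median of each row as a line. Called genes fall on both sides of 0 in 6 of the 7 rows, and the constant regions have 1 called gene, below 0.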

How the data were processed

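RNA of mouse Th17 cells was sequenced in 3 control and 3 KO libraries. The authors deposited whole-number counts per gene symbol. STAR, featureCounts, DESeq2 and mm10 are named in the submitters' processing notes. The annotation, strand setting and versions are not given in the sources used here. There were 0 columns of values without a sample. Counts were tested with edgeR 4.0.16 in R 4.3.3 (quasi-likelihood test, TMM factors, filterByExpr by group, no covariate), with Benjamini-Hochberg adjustment over 14268 genes. The SE is the absolute log2 fold change over the square root of F. The code of the fit was run on simulated counts with few changed genes and no shared deviations of replicates. That setting differs from these data, so it checks the code only. The members and lists were chosen with earlier results of these data known. Named list genes are the up to 3 called genes with the largest increase and decrease per list at a mean of at least 5 CPM, and others were named after their values were seen. Of the genes the rule names, 1 is not reported here. Profiles used log2(CPM + 0.5). Exon lengths and coordinates came from GENCODE mouse release 21 (GRCm38, as mm10), which held 9 of 9 members. Libraries with equal replicate numbers deviated together across genes (correlations 0.335, 0.125 and 0.428, each over 0.1), so the numbers were read as pairing. That reading is uncertain for replicate 2, because control replicate 2 correlated more with KO replicate 1 (0.278) than with KO replicate 2 (0.125). The calls reported come from the fit without the replicate number, and the block is given as an alternative. The labels do not say what the replicate numbers stand for. Alternatives were other scalings, filters, DESeq2 1.42.0, the replicate block, each library left out, and replicates 1 and 2 alone.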

Additional observations from a re-analysis of the deposited data

How the results depend on the processing

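Besides the reported fit, 14 alternatives were run. They were followed for the members, Rtf1 and the other named genes, but not for the antisense genes or for cell type markers other than Trdc. Cd3e, Cd4, Lck, Lcp2 and Rtf1 kept direction and call in all 14. Members called higher numbered 1 to 2 with 1 library left out, pathway genes called higher 5 to 9, and genes called lower 2170 to 3700. With the replicate number as a block, 7628 genes were called, against 6574 without it, and among the members the block changed the call of Cd3d alone, to lower at −0.45. Of the other named genes that were followed, it changed the calls of Kmt2a, to higher, and Sil1, to lower (−0.45). Lat changed sign under DESeq2's size factors in edgeR (−0.000077), DESeq2 (−0.013), replicates 1 and 2 only (−0.11), and without control replicate 1 (−0.059), control replicate 3 (−0.195) or KO replicate 1 (−0.030), with a left-out range of −0.195 to 0.164. Snrpc changed sign with library size only (0.080) and the replicate block (0.011), and ranged from −0.23 to 0.13 over the left-out libraries, with 0.0021 without KO replicate 2 and 0.023 without KO replicate 3. Fyn changed sign with replicates 1 and 2 only (−0.013), without control replicate 1 (−0.029) and without control replicate 3 (−0.10), with a left-out range of −0.10 to 0.11. The cause of these changes was not tested. Levels per length rose with the longest transcript as the length, by construction, since it is shorter than the union of exons. Depth did not limit the members, which held at least 1951 counts each.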
